A study of Homo sapiens with 12 samples.

Results

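The 10 genes described here encode trefoil factors (TFF1, TFF2, TFF3), mucins (MUC1, MUC2, MUC13) and other products of mucus-secreting goblet cells (CLCA1, SPINK4, REG4, AGR2). They were found by their symbols in the deposited tables, and all 10 had a row among the 60624 gene rows used. RNA-seq had been performed on islet-like cells that the labels call ePP-derived islets, where ePP cells are expandable pancreatic progenitors, made from the human embryonic stem cell line MEL1. There were 4 groups of 3 libraries, collected at day 8 in a medium named R6: NKX2-2 knockout (KO) with its own wild type (WT), and CLEC16A KO with its own WT. All groups shared R6, which held 616452, T3, LDN-193189, Compound E, vitamin C, forskolin, heparin and zinc sulfate in a base with B27 and BSA, after progenitor culture on feeder cells. NKX2-2 is a homeodomain transcription factor of islet and gut endocrine cells, and CLEC16A is a regulator of mitophagy. The labels give neither the edited allele nor the clones, so clonal differences cannot be told apart from the knockout. They also do not say whether replicates were separate cultures, so the spread behind each p-value may be technical only.

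Mucus lines the gut and other wet epithelia. Goblet cells secrete its gel, built on large glycoproteins such as MUC2, while membrane mucins such as MUC1 and MUC13 stay anchored at the cell surface. Trefoil factors are small, protease-resistant peptides secreted with mucins that help epithelia to repair, and AGR2 is a protein disulfide isomerase of the endoplasmic reticulum needed to fold mucins.

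The NKX2-2 libraries held between 16157481 and 20649976 counts each, and the CLEC16A libraries between 31364272 and 33763795. Deposited TPM (abundance per transcript length, scaled to a fixed total) summed to between 41.447% and 47.241% of the full total in the NKX2-2 tables and between 99.683% and 99.78% in the CLEC16A tables. Levels were therefore not compared between experiments. The targeted transcripts do not check the labels. NKX2-2 had 91.8, 67.9 and 68.2 CPM (counts scaled to a fixed library size) in the libraries labelled NKX2-2 KO. Their WT had 95.3, 96.5 and 93.3 CPM. The KO libraries were all lower, but the difference did not pass (log2 fold change -0.32, edgeR adjusted p 0.061). Deposited TPM put it larger, with means of 34.6 TPM in KO and 57.4 TPM in WT. CLEC16A had 35.3, 38.0 and 36.8 CPM in CLEC16A KO and 36.2, 30.1 and 30.7 CPM in its WT (log2 fold change 0.18, edgeR adjusted p 0.0949). The NKX2-2 transcript was also lower in CLEC16A KO, at 65.7, 65.8 and 58.9 CPM against 113, 131 and 119 CPM in WT. That log2 fold change of -0.93 (edgeR adjusted p 3.53e-10) was larger in size than in the libraries labelled NKX2-2 KO.

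The 3 trefoil genes lie side by side on the minus strand of chromosome 21 (GRCh38, GENCODE 29): TFF3 at chr21:42311667-42315651, TFF2 at chr21:42346357-42351128 and TFF1 at chr21:42362282-42366594, a span of 54.9 kb. MUC1 is at chr1:155185824-155192916 (minus), CLCA1 at chr1:86468368-86500289 (plus), REG4 at chr1:119794018-119811660 (minus), MUC13 at chr3:124905442-124953819 (minus), AGR2 at chr7:16791811-16833433 (minus), SPINK4 at chr9:33218365-33248567 (plus) and MUC2 at chr11:1074875-1110511 (plus). MUC1 shares 1449 bases with AL713999.1 on the same strand, and SPINK4 shares 748 bases with BAG1 on the opposite strand. The sources used here do not give how overlaps and strand were treated in counting, so within these pairs reads cannot be told apart.

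Promoter sequence was matched for 7 of the 10 genes in a RefSeq table (GRCh38.p14). The 250 bases upstream of the annotated start are shown for the 4 whose knockout effects lay farthest apart between the experiments or were the largest of the set. Capitals mark a match to any of 6 short motifs, searched on both strands. The TATA box was searched as TATAAA, and the CDX motif of intestinal homeodomain factors as TTTATG. For the FOXA motif of forkhead factors the letters were TGTTTAC, and the alternative TGTTTGC was allowed at the same positions. For the GATA motif they were AGATAA, and the alternative TGATAA was allowed likewise. The NKX2 motif was searched as TNAAGTG, and the HNF1 motif by its consensus with 1 free base.
MUC13 (chr3:124934752-124935001, minus): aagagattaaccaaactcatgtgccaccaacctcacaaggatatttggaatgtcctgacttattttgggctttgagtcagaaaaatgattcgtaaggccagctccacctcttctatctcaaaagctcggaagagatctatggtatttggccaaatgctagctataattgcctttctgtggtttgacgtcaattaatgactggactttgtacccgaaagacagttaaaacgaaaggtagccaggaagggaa
CLCA1 (chr1:86468677-86468926, plus): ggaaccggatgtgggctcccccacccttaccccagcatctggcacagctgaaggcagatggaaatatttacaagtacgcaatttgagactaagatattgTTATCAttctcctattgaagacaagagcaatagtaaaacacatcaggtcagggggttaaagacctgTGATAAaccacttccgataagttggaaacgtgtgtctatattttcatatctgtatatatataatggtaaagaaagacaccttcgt
MUC2 (chr11:1074624-1074873, plus): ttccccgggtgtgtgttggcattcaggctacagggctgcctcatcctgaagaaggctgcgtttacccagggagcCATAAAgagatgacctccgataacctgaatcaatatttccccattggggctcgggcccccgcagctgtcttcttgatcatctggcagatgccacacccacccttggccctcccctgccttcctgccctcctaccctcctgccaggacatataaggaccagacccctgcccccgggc
SPINK4 (chr9:33239917-33240166, plus): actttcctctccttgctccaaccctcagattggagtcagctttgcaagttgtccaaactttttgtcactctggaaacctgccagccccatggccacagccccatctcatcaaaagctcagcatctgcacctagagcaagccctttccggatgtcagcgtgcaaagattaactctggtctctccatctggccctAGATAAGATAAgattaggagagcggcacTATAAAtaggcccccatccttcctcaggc
The RefSeq starts of MUC13, CLCA1 and SPINK4, and the windows before them, lie inside the GENCODE gene bodies given above. MUC13 held no match in this window. CLCA1 held 2 GATA matches, TTATCA at -151 to -146 and TGATAA at -85 to -80 from the start. MUC2 held 1 CDX match on the minus strand, CATAAA at -176 to -171. SPINK4 held 2 GATA matches that share a base, at -57 to -52 and -52 to -47, and TATAAA at -29 to -24. Over the 7 promoters, 4 held the GATA letters, 3 the CDX letters, 3 TATAAA and 1 the FOXA letters, and none held the HNF1 or NKX2 letters. Among 27305 promoters of the same length, 14.9% held the GATA letters, 10.0% the CDX letters, 11.1% TATAAA, 6.1% the FOXA letters, 0.3% the HNF1 letters and 8.8% the NKX2 letters. A match to such short letters describes the sequence and is not a binding site.

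In CLEC16A KO, 8 of the 10 genes were higher than in WT by edgeR at an adjusted p under 0.05 over all genes (TFF1, TFF2, TFF3, MUC1, MUC2, MUC13, CLCA1, AGR2), and none was lower. REG4 did not pass and SPINK4 had too few counts to be tested. Of all 19958 genes tested there, 23.7% were higher and 21.3% lower. In NKX2-2 KO the same set split, with 5 higher (TFF1, TFF3, CLCA1, SPINK4, AGR2) and 2 lower (MUC1, MUC13), while TFF2 and REG4 did not pass and MUC2 had too few counts. Of all 17436 genes tested there, 16.6% were higher and 16.8% lower. SPINK4 passed the filter on low counts in that experiment only through the KO libraries.

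**Figure D1:**
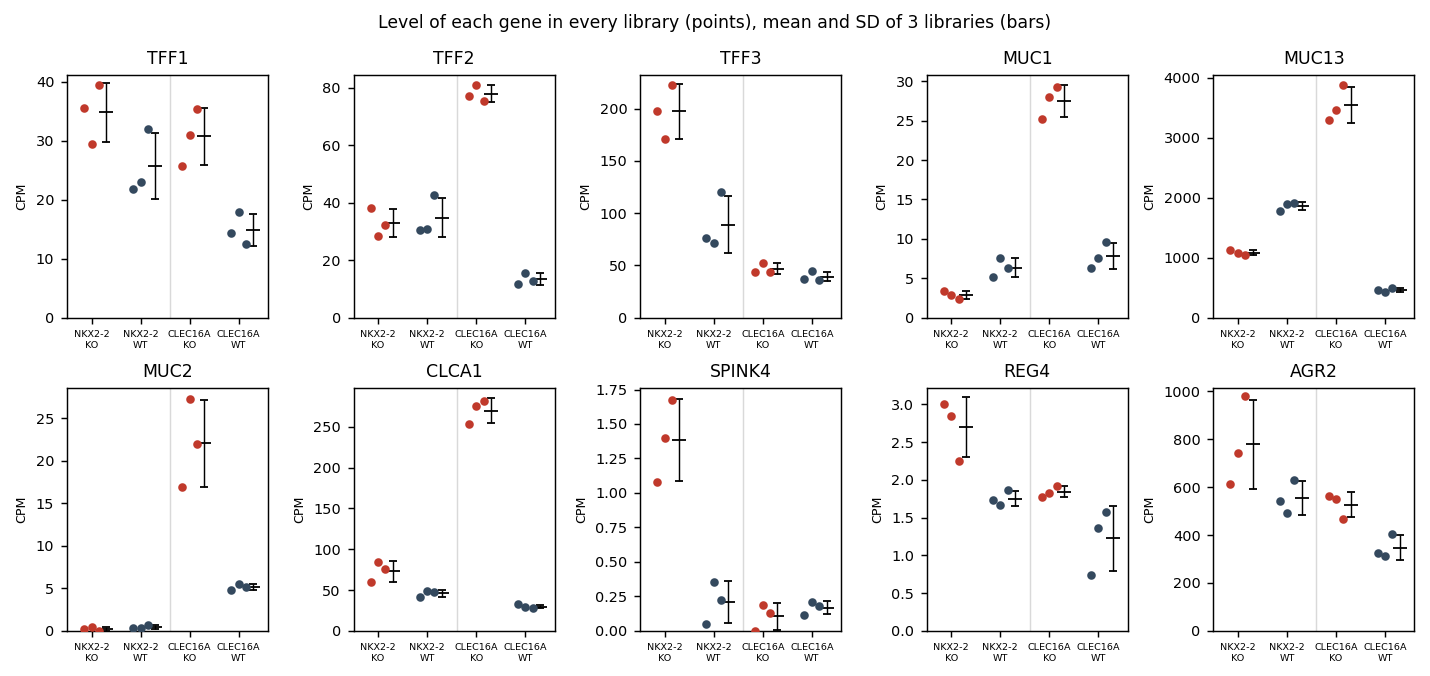
Level of each of the 10 genes in CPM (counts scaled to a fixed library size, y axis, from 0, 1 scale per gene) in the 12 libraries (points), by group on the x axis, with the mean and SD of 3 libraries beside them. MUC13 lies between 3302 and 3885 CPM in CLEC16A KO, against 419 to 498 CPM in its WT, while in the NKX2-2 experiment the KO libraries lie below their WT.

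TFF2, a trefoil factor best known from gastric mucous cells, set the experiments apart. It had 77.2, 81.1 and 75.3 CPM in the CLEC16A KO libraries, against 11.7, 15.6 and 12.9 CPM in WT. All 3 KO libraries were above all WT libraries, and the log2 fold change was 2.54 (SE 0.09, edgeR adjusted p 1.24e-15). In the NKX2-2 experiment TFF2 had 38.2, 28.3 and 32.3 CPM in KO and 30.6, 30.9 and 42.5 CPM in WT. These groups overlapped (log2 fold change -0.07, 95% interval -0.41 to 0.26, edgeR adjusted p 0.741). The sign of that value turned to 0.02 without NKX2-2 KO replicate 2 and to 0.10 without WT replicate 3.

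TFF3, the trefoil factor of intestinal goblet cells, showed the other pattern. It had 198, 171 and 223 CPM in NKX2-2 KO, against 76.2, 71.0 and 120 CPM in WT. The KO libraries were all higher, 2.22-fold in the fit (log2 fold change 1.15, SE 0.18, edgeR adjusted p 0.000249). In the CLEC16A experiment TFF3 had 44.1, 52.6 and 43.2 CPM in KO and 37.2, 44.5 and 36.1 CPM in WT. There the groups overlapped, and a log2 fold change of 0.25 (SE 0.09) passed narrowly (edgeR adjusted p 0.0348). That call was lost under 8 of 15 alternatives, among them without KO replicate 2 (0.15, edgeR adjusted p 0.219), without WT replicate 1 (0.21, edgeR adjusted p 0.146) and without WT replicate 3 (0.19, edgeR adjusted p 0.182).

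TFF1, also a gastric trefoil factor, was higher in both knockouts. It had 25.8, 31.1 and 35.4 CPM in CLEC16A KO, against 14.4, 17.9 and 12.5 CPM in WT. The groups were separate (log2 fold change 1.04, SE 0.13, edgeR adjusted p 1.97e-06). In NKX2-2 KO it had 35.5, 29.5 and 39.5 CPM, against 21.8, 23.0 and 32.1 CPM in WT. One KO library lay below the highest WT library, and the log2 fold change of 0.44 (SE 0.16) was just past the threshold (edgeR adjusted p 0.0484). The call was lost with DESeq2 (0.41, adjusted p 0.0615), with RLE scaling (0.42, edgeR adjusted p 0.0572) and without any of NKX2-2 KO replicate 1 (0.41, edgeR adjusted p 0.117), KO replicate 3 (0.34, edgeR adjusted p 0.119), WT replicate 1 (0.32, edgeR adjusted p 0.217) or WT replicate 2 (0.35, edgeR adjusted p 0.195). It held with the replicate numbers as a block (0.45, edgeR adjusted p 0.000454), each KO library being above the WT library of its number, and without both libraries numbered 3 (0.53, edgeR adjusted p 0.00362). The labels do not state that libraries of the same number belong together, so fits with this block rest on an assumed pairing.

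Of the membrane mucins, MUC13 was the most abundant. It had 3302, 3460 and 3885 CPM in CLEC16A KO, against 466, 419 and 498 CPM in WT. This was 7.70-fold (log2 fold change 2.94, SE 0.08, edgeR adjusted p 6.23e-18), with no overlap. By TPM it ranked between 27 and 41 among all genes in the KO libraries and between 359 and 468 in WT, and it took 0.315% to 0.364% of all counts in KO against 0.0441% to 0.0524% in WT. In the NKX2-2 experiment MUC13 had 1127, 1082 and 1044 CPM in KO, against 1781, 1894 and 1913 CPM in WT. There the KO libraries were all lower (log2 fold change -0.78, SE 0.11, edgeR adjusted p 9.81e-05).

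MUC1, the membrane mucin of many glandular epithelia, moved in the same directions from a lower level. It had 25.2, 27.9 and 29.2 CPM in CLEC16A KO, against 6.27, 7.60 and 9.56 CPM in WT, without overlap (log2 fold change 1.82, SE 0.13, edgeR adjusted p 1.32e-10). The deposited TPM put the same difference lower, with means of 16.7 TPM in KO and 10.6 TPM in WT, a ratio of 1.57, and limma on log2(TPM + 1) gave 0.64 (adjusted p 0.0399). In NKX2-2 KO it had 3.43, 2.85 and 2.42 CPM, against 5.13, 7.62 and 6.25 CPM in WT. All KO libraries were lower (log2 fold change -1.13, SE 0.21, edgeR adjusted p 0.00125; -0.56 on log2(TPM + 1), adjusted p 0.0166).

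MUC2, the gel-forming mucin of intestinal goblet cells, was higher in CLEC16A KO. It had 16.9, 27.2 and 22.03 CPM there, against 4.84, 5.52 and 5.22 CPM in WT, a 4.25-fold difference without overlap (log2 fold change 2.09, SE 0.15, edgeR adjusted p 2.05e-10; 1.22 on log2(TPM + 1), adjusted p 0.00114). In the NKX2-2 experiment it was near the detection limit, with 12 counts over the 3 KO libraries and 25 over the 3 WT libraries. Their ratio on scaled libraries was 0.519, with a 95% counting interval of 0.238 to 1.07, which covers counting error only. MUC2 had 0.224 times as many counts per TPM in the NKX2-2 as in the CLEC16A tables, relative to the median gene, against 0.757 to 1.08 times for the other 9 genes, so its counts in the NKX2-2 tables are uncertain. Its mean TPM was also low there, 0.0662 in KO and 0.109 in WT.

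CLCA1, a metalloprotease secreted into mucus by goblet cells, was higher in both knockouts, to different extents. It had 253, 275 and 282 CPM in CLEC16A KO, against 32.4, 28.6 and 28.2 CPM in WT. This 9.07-fold difference (log2 fold change 3.18, SE 0.08, edgeR adjusted p 1.14e-18) was the largest of the set in that experiment. In NKX2-2 KO it had 59.4, 84.4 and 75.6 CPM, against 41.1, 49.3 and 47.0 CPM in WT, again without overlap (log2 fold change 0.68, SE 0.14, edgeR adjusted p 0.00182).

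SPINK4, a Kazal-type serine protease inhibitor found in goblet cells, had 1.08, 1.40 and 1.67 CPM in NKX2-2 KO, against 0.0480, 0.353 and 0.225 CPM in WT. The groups were separate at a low level, 75 counts in the 3 KO libraries against 12 in WT. SPINK4 passed the count filter there only through the KO libraries, so its p-values are not independent support. The overlap with BAG1 given above also applies to these counts. The log2 fold change was 2.71 (SE 0.51, edgeR adjusted p 0.0011; 1.37 on log2(TPM + 1), adjusted p 0.000443), and 3.32 without WT replicate 2. The count ratio on scaled libraries was 6.76, with a 95% counting interval of 3.65 to 13.7, which covers counting error only. In the CLEC16A experiment there were 10 counts in KO and 17 in WT (ratio 0.63, 95% counting interval 0.258 to 1.46).

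REG4, a secreted lectin of the regenerating family found in intestinal secretory and enteroendocrine cells, was called in neither experiment. It had 3.00, 2.85 and 2.25 CPM in NKX2-2 KO and 1.73, 1.67 and 1.86 CPM in WT (log2 fold change 0.62, 95% interval 0.10 to 1.15, edgeR adjusted p 0.0628). In the CLEC16A experiment it had 1.78, 1.83 and 1.92 CPM in KO and 0.745, 1.36 and 1.58 CPM in WT (log2 fold change 0.59, 95% interval -0.06 to 1.24, edgeR adjusted p 0.134). In both experiments the KO libraries were above the WT libraries, and the intervals include increases of over 2-fold. Upper-quartile scaling took the NKX2-2 value past the threshold (0.69, edgeR adjusted p 0.0435).

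AGR2 was higher in both knockouts by similar sizes. It had 562, 552 and 467 CPM in CLEC16A KO, against 326, 312 and 406 CPM in WT, without overlap (log2 fold change 0.60, SE 0.10, edgeR adjusted p 0.000112). In NKX2-2 KO it had 613, 743 and 981 CPM, against 544, 491 and 632 CPM in WT. One KO library lay below the highest WT library (log2 fold change 0.49, SE 0.16, edgeR adjusted p 0.0324). That call was lost without NKX2-2 KO replicate 2 (0.52, edgeR adjusted p 0.0723), KO replicate 3 (0.29, edgeR adjusted p 0.106), WT replicate 1 (0.46, edgeR adjusted p 0.102) or WT replicate 2 (0.38, edgeR adjusted p 0.138). It held with the replicate numbers as a block (0.47, edgeR adjusted p 1.74e-05), each KO library again being above the WT library of its number, and without both libraries numbered 3 (0.39, edgeR adjusted p 0.00847). With the AGR2 and TFF1 calls both lost, 3 of the 10 genes were higher in NKX2-2 KO without KO replicate 3, WT replicate 1 or WT replicate 2, in place of 5, while 5 were higher with the block.

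**Figure D2:**
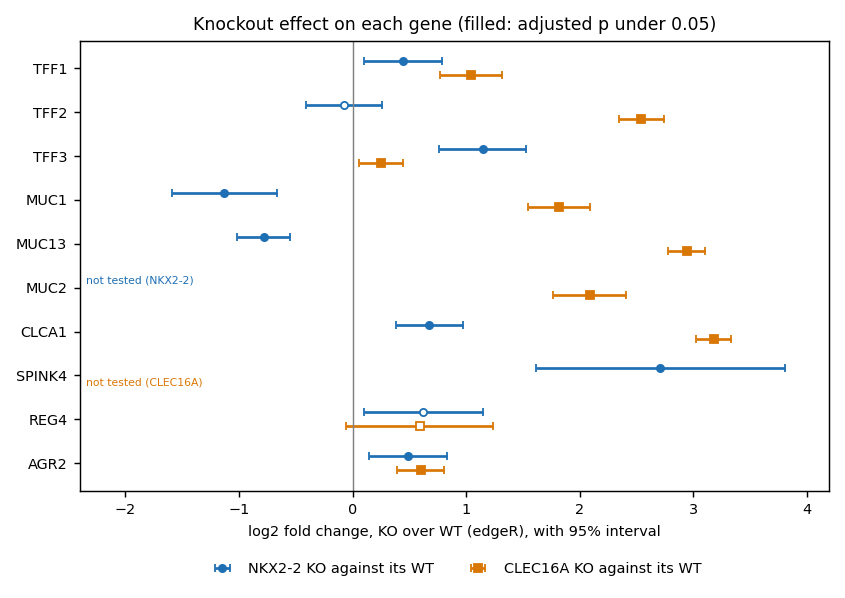
Log2 fold change of KO over WT (x axis) for each of the 10 genes in the NKX2-2 experiment (circles) and the CLEC16A experiment (squares), with 95% intervals from edgeR and filled symbols for an adjusted p under 0.05. The genes farthest to the right are CLCA1 and MUC13 in CLEC16A KO at 3.18 and 2.94, while MUC13 and MUC1 lie left of 0 in NKX2-2 KO at -0.78 and -1.13.

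Whether the knockout effects differed was tested as an interaction in 1 edgeR fit of the 12 libraries, as the NKX2-2 effect minus the CLEC16A effect. The difference was negative for 5 genes. It was -3.72 for MUC13 (SE 0.14, edgeR adjusted p 5.96e-15), -2.94 for MUC1 (SE 0.25, edgeR adjusted p 3.91e-09) and -2.61 for TFF2 (SE 0.19, edgeR adjusted p 4.47e-10). For CLCA1 it was -2.50 (SE 0.16, edgeR adjusted p 2.73e-11), although both effects were positive, and for MUC2 it was -3.02 (SE 0.65, edgeR adjusted p 0.000736), which rests on the uncertain NKX2-2 counts and was -3.91 without NKX2-2 KO replicate 2. It was positive for SPINK4 at 3.38 (SE 1.03, edgeR adjusted p 0.0122), which rests on few counts and was 4.01 without NKX2-2 WT replicate 2 and 4.05 without CLEC16A KO replicate 2, and for TFF3 at 0.91 (SE 0.25, edgeR adjusted p 0.0105). Of all 20494 genes tested, 17.8% had a positive and 20.4% a negative difference by the same threshold. A difference was not detected for AGR2 (-0.10, 95% interval -0.56 to 0.35, edgeR adjusted p 0.746) or REG4 (0.04, 95% interval -0.79 to 0.87, edgeR adjusted p 0.957). TFF1 was at the threshold (-0.59, SE 0.23, edgeR adjusted p 0.0518). With the replicate numbers as a block its difference was -0.58 and passed (edgeR adjusted p 0.00527), and it also passed without NKX2-2 KO replicate 3 (-0.68), NKX2-2 WT replicate 1 (-0.70), NKX2-2 WT replicate 2 (-0.67), CLEC16A KO replicate 1 (-0.71) or CLEC16A WT replicate 2 (-0.74). The tables of the experiments were made separately, and a difference in how they were made cancels only where it was the same in KO and WT.

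Per transcript length, MUC13 and AGR2 were the highest of the set in every group. Mean levels in CLEC16A KO were 2243 ± 200 TPM for MUC13, 635 ± 60.3 for AGR2, 229 ± 5.38 for TFF2, 165 ± 8.56 for CLCA1, 113 ± 16.9 for TFF1, 81.7 ± 6.12 for TFF3, 16.7 ± 1.95 for MUC1, 3.36 ± 0.684 for MUC2, 2.16 ± 0.140 for REG4 and 0.462 ± 0.447 for SPINK4 (SD, n = 3). In its WT, AGR2 (450 ± 70.2 TPM) stood above MUC13 (318 ± 28.9), followed by TFF3 (73.5 ± 8.47), TFF1 (61.3 ± 11.6), TFF2 (42.5 ± 5.74) and CLCA1 (19.8 ± 1.83). In NKX2-2 KO the order was AGR2 (365 ± 72.7 TPM), MUC13 (279 ± 21.1), TFF3 (135 ± 15.2), TFF1 (51.9 ± 6.23), TFF2 (39.9 ± 7.01) and CLCA1 (18.2 ± 3.08), and in its WT it was MUC13 (476 ± 7.07 TPM), AGR2 (262 ± 27.9), TFF3 (60.5 ± 17.2), TFF2 (42.2 ± 7.30), TFF1 (37.8 ± 8.07) and CLCA1 (11.3 ± 0.922). MUC1, REG4, SPINK4 and MUC2 stayed at or under 2.47 TPM on average in both NKX2-2 groups. Neighbours whose libraries overlapped among the higher genes were AGR2 and MUC13 as well as TFF1 and TFF2 in NKX2-2 KO, TFF3 and TFF1 in CLEC16A WT, and the 3 trefoil genes in NKX2-2 WT.

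The protein-coding genes within 250 kb of the trefoil cluster were examined for the same comparisons. TMPRSS3, a transmembrane serine protease gene next to TFF1, had 11.1 CPM in CLEC16A KO and 2.83 CPM in WT (log2 fold change 1.98, SE 0.16, edgeR adjusted p 1.03e-09), and 6.19 and 6.61 CPM in NKX2-2 KO and its WT (-0.09, edgeR adjusted p 0.701). This is the order of effects that TFF2 had. ABCG1, a cholesterol transporter gene beyond TFF3, had the other order, with 11.7 CPM in NKX2-2 KO and 5.86 CPM in WT (1.00, SE 0.18, edgeR adjusted p 0.000772) and a log2 fold change of 0.15 in the CLEC16A experiment (edgeR adjusted p 0.499). Farther out, SLC37A1 was lower in NKX2-2 KO (-0.59, edgeR adjusted p 0.00483) and higher in CLEC16A KO (0.65, edgeR adjusted p 2.06e-07), UMODL1 was lower in CLEC16A KO (-1.03, edgeR adjusted p 0.00147) and RSPH1 passed in neither experiment. UBASH3A had too few counts to be tested.

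**Figure D3:**
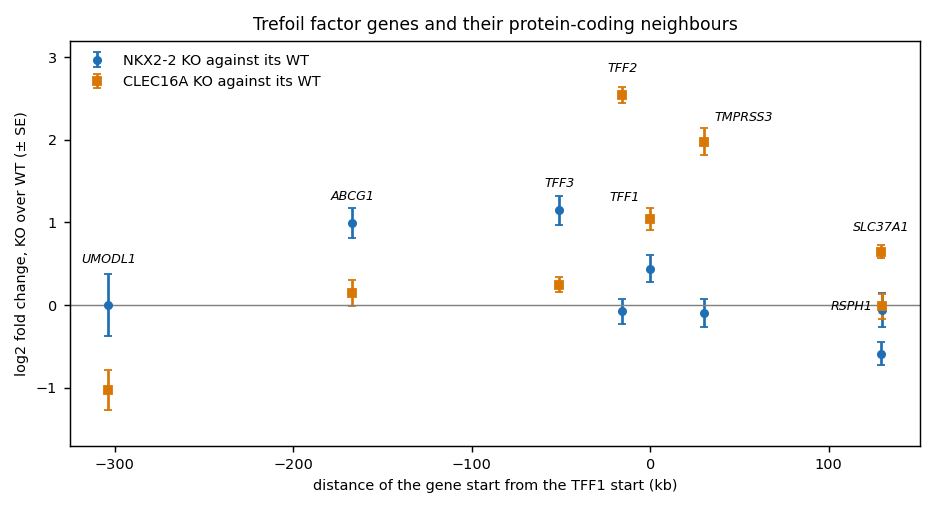
Log2 fold change of KO over WT with its SE (y axis) for the trefoil genes and their protein-coding neighbours, by the distance of each gene's start from that of TFF1 (x axis, kb), in the NKX2-2 experiment (circles) and the CLEC16A experiment (squares). The CLEC16A values peak at TFF2 (2.54) and TMPRSS3 (1.98), and the NKX2-2 values at TFF3 (1.15) and ABCG1 (1.00).

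Pearson's r over the 12 libraries, on log2 CPM centred within each experiment, was used to describe which of 13396 genes were most like each of the 8 members tested in both experiments. The points share libraries and depth, and r follows the group differences. ALPI, intestinal alkaline phosphatase (r 0.998), and SLC7A9, an amino acid transporter subunit (r 0.997), were most like MUC13. For TFF2 they were AMN (r 0.997), which with cubilin takes up vitamin B12 in the ileum, and FKBP11 (r 0.992). For CLCA1 they were EFNB1 and HSD3B2 (r 0.995 each), and for MUC1 AL590064.1 and the transcription factor gene IRF1 (r 0.99 each). The closest were less close for TFF3 (TSPAN31, r 0.971), TFF1 (MARCKS, r 0.97), AGR2 (PRKAG1, r 0.965) and REG4 (TRIM32, r 0.92). Because r takes no account of size, a gene may be close and change little. MARCKS had log2 fold changes of 0.10 in NKX2-2 KO and 0.22 in CLEC16A KO, against 0.44 and 1.04 for TFF1. Within the set, r was highest for TFF2 with MUC13 (0.953) and with CLCA1 (0.941) and lowest for TFF3 with MUC1 (-0.30).

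The other genes of mucus production were taken as 6 lists of 101 genes. In CLEC16A KO, 49 of the 89 tested were higher (55.1%) and 12 lower (13.5%), with a median log2 fold change of 0.51, against -0.01 over all genes tested. Of all genes tested in that experiment, 23.7% were higher and 21.3% lower. In NKX2-2 KO, 14 of the 81 tested were higher (17.3%) and 27 lower (33.3%), with a median of -0.10, against 0.03 over all genes. Of all genes tested there, 16.6% were higher and 16.8% lower, so the share of higher genes was near that of all genes. The same shares stand behind the counts of the single lists and marker lists below. Fewer than 3 libraries of the lower group reached the count filter for 3 of the 49 higher genes in CLEC16A KO, and for 3 of the 14 higher and 3 of the 27 lower genes in NKX2-2 KO, which therefore passed it through the group where they were high.

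Among other mucins, 7 of 14 were higher and 1 lower in CLEC16A KO. The genes with the smallest p were the membrane mucin genes MUC16 (6.80 CPM in KO and 0.455 in WT, log2 fold change 3.89), MUC17 (8.18 and 0.583 CPM, 3.80) and MUC12 (7.47 and 1.19 CPM, 2.64), with edgeR adjusted p of at most 1.1e-09, and the sialomucin CD164 (839 and 549 CPM, 0.61, edgeR adjusted p 1.09e-07). In NKX2-2 KO 4 of 10 were higher, among them MUC16 (2.55 CPM in KO and 0.424 in WT, log2 fold change 2.55, edgeR adjusted p 0.000791) PODXL (71.4 and 34.9 CPM, 1.03) and MCAM (12.9 and 7.21 CPM, 0.83), and 3 were lower, among them MUC17 (0.863 and 2.33 CPM, -1.42, edgeR adjusted p 0.00447). MUC16 and MUC17 are among the genes that passed the count filter there through the group where they were high. Mucin genes hold repeats, and how reads that match several places were counted is not given in the sources used here.

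Of the other goblet and mucus products, 9 of 13 were higher and 1 lower in CLEC16A KO. They included PIGR, which carries antibodies into mucus (456 CPM in KO and 56.6 in WT, log2 fold change 3.01), FCGBP, a mucus protein that joins MUC2 (125 and 22.8 CPM, 2.45), the mucus lectin ZG16 (53.6 and 9.58 CPM, 2.48) and BCAS1 (13.5 and 3.35 CPM, 2.01). In NKX2-2 KO 5 of 11 were higher and 3 lower. The goblet peptide gene RETNLB (4.42 CPM in KO and 0.865 in WT, 2.33, edgeR adjusted p 1.14e-05) and LYPD8 (7.61 and 2.55 CPM, 1.58) rose, and FCGBP fell (19.2 and 30.2 CPM, -0.65, edgeR adjusted p 0.00144), as did the tryptase gene TPSG1 (0.66 and 2.34 CPM, -1.82, edgeR adjusted p 0.00134), which also passed the count filter through WT.

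The transcription factor genes listed for goblet cells include some not particular to them, such as the intestinal factor gene CDX2. In CLEC16A KO, 7 of 13 were higher and 3 lower. The higher ones included KLF5 (363 CPM in KO and 117 in WT, log2 fold change 1.64), ELF3 (115 and 41.5 CPM, 1.47), CDX2 (294 and 151 CPM, 0.96) and KLF4 (21.5 and 7.42 CPM, 1.53). CDX1, also higher, passed the count filter only through the KO libraries. ATOH1, which commits gut progenitors to the secretory lineages, had 4.15 CPM in CLEC16A KO and 1.20 in WT (1.79, edgeR adjusted p 2.92e-06). SPDEF, which drives goblet maturation, stayed at 0.697 CPM in KO and 0.499 in WT (0.49, edgeR adjusted p 0.483). In NKX2-2 KO none of 11 was higher and 5 were lower, among them ELF3 (26.9 CPM in KO and 58.4 in WT, -1.12), FOXA2 (75.7 and 157 CPM, -1.05), FOXA3 (22.5 and 39.4 CPM, -0.80) and CDX2 (94.4 and 162 CPM, -0.78), and ATOH1 did not pass (0.22, edgeR adjusted p 0.701). FOXA2 was lower in CLEC16A KO too, at 155 CPM in KO and 241 in WT (-0.63, edgeR adjusted p 2.73e-08).

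The enzymes that build the O-linked sugars of mucins gave 17 higher and 7 lower of 30 in CLEC16A KO, with GCNT3, a core-branching enzyme gene (177 CPM in KO and 36.2 in WT, log2 fold change 2.29), B4GALNT2 (78.6 and 15.6 CPM, 2.33), the secretor fucosyltransferase gene FUT2 (78.0 and 14.7 CPM, 2.40) and B3GNT3 (32.0 and 3.86 CPM, 3.05) having the smallest p. In NKX2-2 KO 3 of 30 were higher and 14 lower, with ST6GALNAC4 (14.2 CPM in KO and 57.3 in WT, -2.01), B3GNT7 (26.4 and 76.6 CPM, -1.54), B4GALNT3 (24.6 and 61.2 CPM, -1.32) and GCNT3 (32.5 and 67.8 CPM, -1.06) among those lower. For folding and secretion, 7 of 16 were higher and 0 lower in CLEC16A KO, among them the granule fusion gene VAMP8 (1.99), ERN2, the stress sensor gene of mucous epithelia (1.99), STXBP2 (0.58) and PDIA6 (0.40). In NKX2-2 KO 2 of 16 were higher, ERN1 (0.81) and CREB3L4 (0.56), and 2 were lower, RAB27A (-1.08) and STXBP2 (-0.47). Of the REG family, REG1A (1.17, edgeR adjusted p 1.35e-05) and REG3A (1.23, edgeR adjusted p 0.00659) were higher in CLEC16A KO, REG3G did not pass (0.13, edgeR adjusted p 0.851), and none of the 3 passed in NKX2-2 KO.

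**Figure D4:**
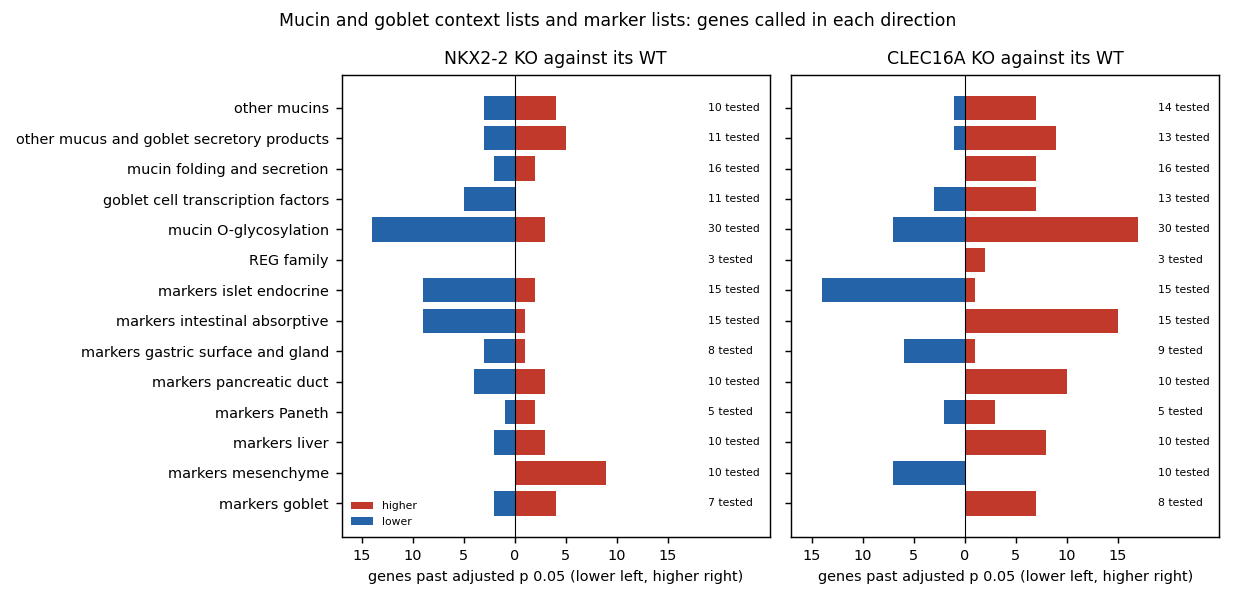
Number of genes past an edgeR adjusted p of 0.05 (x axis, lower to the left of 0 and higher to the right) in each list of mucus-related genes and each cell type marker list, for NKX2-2 KO against its WT and CLEC16A KO against its WT, with the number tested at the right. In CLEC16A KO, 17 of 30 O-glycosylation genes and 15 of 15 intestinal absorptive markers are higher, and in NKX2-2 KO 14 of 30 and 9 of 15 are lower. Over all genes tested, 23.7% are higher and 21.3% lower in CLEC16A KO, and 16.6% are higher and 16.8% lower in NKX2-2 KO.

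In bulk libraries more or fewer cells of a type and more or less RNA per cell cannot be told apart, and markers of several cell types also changed. Intestinal absorptive markers were 15 higher of 15 in CLEC16A KO, with a summed level of 10181 to 12076 TPM in KO against 1207 to 1270 in WT. In NKX2-2 KO 1 of the 15, the sucrase-isomaltase gene SI, was higher and 9 were lower, with 952 to 1036 TPM in KO against 1251 to 1425 in WT. Islet endocrine markers were present in all groups, at 19619 to 22966 TPM in CLEC16A KO against 49652 to 56632 in its WT. In the NKX2-2 experiment they were at 3826 to 4402 TPM in KO against 9196 to 11216 in WT. Of the 15, 1 was higher and 14 lower in CLEC16A KO and 2 were higher and 9 lower in NKX2-2 KO.

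The 9 goblet markers, 5 of them members here, were 7 higher and 0 lower of 8 tested in CLEC16A KO, with a summed level of 877 to 973 TPM in KO against 501 to 624 in WT. In NKX2-2 KO 4 were higher and 2 lower (FCGBP and ZG16) of 7 tested, with 459 to 614 TPM in KO against 302 to 387 in WT. Most of these sums was AGR2 alone, with means of 635 and 450 TPM in CLEC16A KO and its WT. Its means in NKX2-2 KO and its WT were 365 and 262 TPM. Pancreatic duct markers were 10 higher of 10 in CLEC16A KO and 3 higher and 4 lower of 10 in NKX2-2 KO. Liver markers were 8 higher and 0 lower of 10 in CLEC16A KO and 3 higher and 2 lower of 10 in NKX2-2 KO. Gastric markers were 1 higher and 6 lower of 9 in CLEC16A KO and 1 higher and 3 lower of 8 in NKX2-2 KO. The surface mucous cell markers GKN1 and GKN2 were at 0 in all CLEC16A libraries. In the NKX2-2 experiment they had some counts, but too few to be tested. Paneth markers were 3 higher and 2 lower of 5 in CLEC16A KO and 2 higher and 1 lower of 5 in NKX2-2 KO. Mesenchyme markers were 7 lower of 10 in CLEC16A KO and 9 higher of 10 in NKX2-2 KO, where their summed level was 1095 to 1213 TPM in KO against 455 to 495 in WT. Some marker calls were of genes that passed the count filter through the group where they were high. In CLEC16A KO these were the lower calls of DEFA5 (Paneth), DCN and TWIST1 (mesenchyme). In NKX2-2 KO they were the lower calls of PPY (islet) and PSCA (gastric) and the higher calls of DEFA5 and SPINK4 (goblet). The part of any of these cell types in the mucin and trefoil results was not tested.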

How the data were processed

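Both experiments came with raw counts per gene, not normalized, and with TPM values, as deposited by the authors. The submitters' processing notes name hg38 as the build and list fastp 0.22.0, HISAT2 2.2.1 and StringTie 2.1.7. What counted the reads, with which annotation release and strand setting, is not given in the sources used here. Rows for Y copies of pseudoautosomal genes (45) were dropped.

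Groups and replicate numbers came from the sample titles. Each KO was tested against its own WT on the deposited counts with edgeR 4.0.16 in R 4.3.3 (quasi-likelihood F test, robust, TMM, filterByExpr), with Benjamini-Hochberg adjustment over all genes tested and a threshold of 0.05. The difference of effects was an interaction in 1 fit of 12 libraries. SE was taken as the size of the log2 fold change divided by the root of F, and counting intervals are exact at 95%. CPM used TMM-scaled library sizes, and TPM was used as deposited by the authors. The alternatives left out 1 library at a time, used a replicate block, fitted all libraries at once, changed the count filter, scaled by upper quartile or RLE, used DESeq2 1.42.0, or ran limma 3.58.1 on deposited TPM with a pseudocount of 1 or 0.1. The edgeR fit of each KO against its WT was tested on simulated counts, but the interaction fit was not.

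Replicate pairs differed by 3.84 to 25.3 times sampling noise (chi-square per degree of freedom), so each library counted as 1 replicate. The replicate block used the numbers in the sample titles, and the labels state no pairing. In the NKX2-2 experiment, deviations from the group means had r across genes of 0.334, 0.208 and 0.688 between libraries of the same number. Across numbers, r between number 1 and 2 libraries was 0.414 and 0.35, above the 0.334 and 0.208 within those numbers. Against number 3 it was negative. Only the libraries numbered 3 thus stood apart as a pair, and numbers 1 and 2 were not matched by number.

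The 10 genes and all lists were chosen with earlier results of these data known. All 10 are named, with the 4 genes of smallest p per mucus-related list and experiment. The same rule held for the marker lists, which are given by their counts and sums, with few genes named. Also named are, for each member tested in both experiments the 2 genes with the highest correlation among those with at least 5 CPM in a group (only the closest is named for some). ATOH1, SPDEF, CDX1, TWIST1, PPY, GKN1, GKN2 and the genes near the trefoil cluster were named outside that rule, after their values were seen.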

Additional observations from a re-analysis of the deposited data

Results flagged for a closer look

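The knockout effects of 7 of the 10 genes differed between the experiments by the interaction test. Of all 20494 genes tested, 17.8% had a positive and 20.4% a negative difference by the same threshold. As the NKX2-2 effect minus the CLEC16A effect on the log2 scale, the difference was -3.72 for MUC13, -2.94 for MUC1, -3.02 for MUC2, -2.61 for TFF2 and -2.50 for CLCA1, and it was 3.38 for SPINK4 and 0.91 for TFF3. MUC13 and MUC1 passed in opposite directions within the experiments, and CLCA1 was higher in both knockouts. The MUC2 and SPINK4 values each rest on an experiment in which the gene had too few counts to be tested.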

How the results depend on the processing

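Of the values recomputed for single genes, 395 kept their direction and their side of the threshold, 18 fell short of it, 8 came past it and 8 changed sign. Leaving out 1 library gave 3 to 5 genes higher in NKX2-2 KO and 2 lower, 7 to 8 higher and 0 lower in CLEC16A KO, and 2 positive and 5 to 6 negative differences of effects. The sign of the TFF2 value in NKX2-2 KO turned without KO replicate 2 (0.02), without WT replicate 3 (0.10) and without both libraries numbered 3 (0.11, chosen after seeing the data). The REG4 difference turned without NKX2-2 KO replicate 1 (-0.04), CLEC16A WT replicate 2 (-0.0367) or CLEC16A WT replicate 3 (-0.18), and the AGR2 difference without NKX2-2 KO replicate 1 (0.0352) or NKX2-2 WT replicate 3 (0.0039). Leaving out 1 library, these values ranged between -0.21 and 0.10 (TFF2), -0.18 and 0.31 (REG4) and -0.30 and 0.04 (AGR2). None of these passed the threshold in any fit, and the cause was not tested. The replicate block took the TFF1 difference past the threshold (-0.58) and changed no other call on the 10 genes. In the CLEC16A experiment same-numbered libraries did not deviate together (r across genes of 0.053, 0.021 and -0.102), and the replicate block left 8 genes higher. MUC2 in the NKX2-2 experiment and SPINK4 in the CLEC16A experiment, tested without a count filter, gave -1.01 (edgeR adjusted p 0.402) and -0.67 (edgeR adjusted p 0.723), so a change was not detectable at this depth.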

Other observations

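Several mucus-related genes outside those named above, chosen here after their values were seen, add detail. MUC3A, an intestinal membrane mucin gene, had 303 ± 58.1 CPM in CLEC16A KO and 40.1 ± 4.26 CPM in WT (SD, n = 3, log2 fold change 2.92, edgeR adjusted p 9.07e-07), and 9.99 ± 5.54 CPM in NKX2-2 KO and 32.0 ± 11.8 CPM in WT (-1.69, edgeR adjusted p 0.0203), the same directions as MUC13 and MUC1. PIGR and the lectin gene ITLN1 were higher in NKX2-2 KO as well (0.33, edgeR adjusted p 0.0385, and 0.78, edgeR adjusted p 0.0017), while ZG16 was lower there (-0.47, edgeR adjusted p 0.0169).

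Not every gene of the pathway was higher in CLEC16A KO. The forkhead factor gene FOXA1 was lower (126 CPM in KO and 171 CPM in WT, -0.43, edgeR adjusted p 0.00019). The sialyltransferase gene ST6GALNAC4 was lower in both knockouts, at 24.7 CPM in CLEC16A KO and 63.3 CPM in its WT (-1.36, edgeR adjusted p 1.56e-10) and at 14.2 CPM in NKX2-2 KO and 57.3 CPM in its WT (-2.01, edgeR adjusted p 2.38e-07).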
